A study of Caenorhabditis elegans with 6 samples.

Results

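The main branches of the small RNA pathways of Caenorhabditis elegans are represented here by 10 Argonaute genes: prg-1, csr-1, hrde-1, wago-1, wago-4, alg-3 and alg-4, which are known chiefly from the germline, ergo-1, which acts in the germline and early embryo, nrde-3, which acts in somatic cells, and rde-1, which is needed for RNA interference in both. They were chosen by name from the 19999 genes of the files, with earlier results of these data known, and all 10 could be tested. The samples were 3 libraries of ddi-1(icb156) animals and 3 libraries of wild-type animals, all called biological replicates by their labels. Each library was made from whole animals at the L4 larval stage, synchronized by bleaching and grown at 20°C on E. coli OP50. The comparison asks how transcript levels differ between animals with and without a working DDI-1, the aspartic protease that cleaves and activates the transcription factor SKN-1A. The icb156 allele came from a chemical mutagenesis screen and changes an amino acid, so the level of ddi-1 RNA is no check of the labels. It is listed for 1 strain, which also carries a chil-27p::GFP and col-12p::mCherry reporter. The sources do not state if the wild-type animals had that reporter, so the mutation, the reporter and any other mutation of the strain cannot be told apart.

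Argonaute proteins hold a small RNA and use it to find matching transcripts. In C. elegans a primary Argonaute, loaded with a piRNA, with an siRNA cut by Dicer or with an endogenous siRNA, recruits RNA-dependent RNA polymerases to its target. These make secondary siRNAs, which load the large worm-specific (WAGO) family of Argonautes that silence the target in the cytoplasm or the nucleus. CSR-1 uses siRNAs against germline transcripts that stay expressed and is known to protect them. In hermaphrodites the germ line makes sperm in the L4 stage and then turns to oocytes, so RNA of L4 animals holds a sperm programme whose size depends on the age of the larvae.

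Totals ran from 28962104 to 36258118 estimated counts in the ddi-1(icb156) libraries and from 40554395 to 47142002 in the wild-type libraries. The Argonaute genes were well covered, with 631 to 20227 counts per gene and library. Wild-type replicate 2 stood apart from the other wild-type libraries. On the first principal component, which took 78.5% of the variance, it lay at -17.2, whereas the ddi-1(icb156) libraries lay at 50.6 to 62.8 and the other wild-type libraries at -77.4 and -74.9. The main results are therefore also given without it. Levels are CPM (counts scaled to a common library size after TMM normalization), and changes are log2 ratios of ddi-1(icb156) over wild type. A gene is called higher or lower where edgeR's quasi-likelihood test gave p below 0.01 together with adjusted p below 0.1. The standard error (SE) of a change was derived from that test, as the absolute log2 ratio over the square root of the F statistic.

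Of the 10 Argonaute genes, csr-1, wago-4, ergo-1, alg-3 and alg-4 were lower in ddi-1(icb156) animals, none was higher and the other 5 missed the thresholds. Among all 15409 genes tested, 13.4% were lower and 9.96% were higher. At an unadjusted p below 0.05, 8 of the 10 were lower and 1 was higher, where 22.8% and 19.2% of all genes tested were. With DESeq2's Wald test 8 were lower and none was higher, where 18.4% and 12.5% of all genes passed. With replicate number as a block 7 were lower and none higher, where 14.3% and 9.11% of all genes passed. The median log2 fold change of the 10 genes was -0.53, against 0.01 over all genes tested. In 8 of them every ddi-1(icb156) library lay below every wild-type library, a pattern seen in 23.5% of all genes tested, and rde-1 had the opposite pattern, seen in 23.4%. The counts depended on single libraries. Without wild-type replicate 2, 8 of the 10 genes were lower and 1 was higher, where 22.2% and 19.7% of all genes tested passed. Only wago-4 remained lower without ddi-1(icb156) replicate 1 and none without ddi-1(icb156) replicate 2, although all 5 folds stayed negative in both fits. Lower calls were fewer among all genes too, at 5.16% without replicate 1 and 4.93% without replicate 2, while 1 of the 10 genes was higher without replicate 1, beside 6.26% of all genes. Libraries of whole animals cannot tell fewer cells of a type from less RNA per cell.

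**Figure D1:**
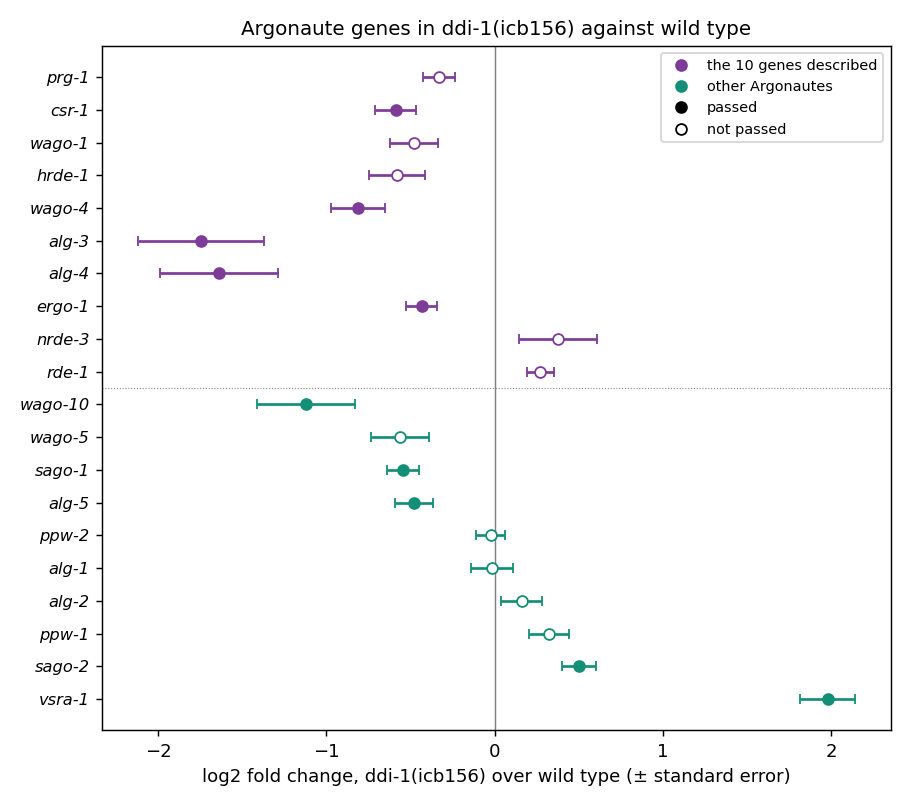
Log2 fold change of ddi-1(icb156) over wild type for the 10 Argonaute genes described and, under the dotted line, the other Argonautes, with bars of 1 standard error and filled points where the test was passed. The fold of alg-3 lies at -1.75 and that of alg-4 at -1.64, while nrde-3 at 0.37 and rde-1 at 0.27 have open points.

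The Argonautes of the sperm-producing germ line had the most negative folds of the 10. ALG-3 and ALG-4 are closely related primary Argonautes that bind siRNAs against spermatogenesis transcripts and are needed together for sperm that work at high temperature. The gene alg-3 (WBGene00011910, T22B3.2, chromosome IV, 11704246 to 11708264, plus strand, WBcel235) had 23.6, 22 and 33.8 CPM in ddi-1(icb156) replicates 1 to 3, against 109, 45 and 112 CPM in wild-type replicates 1 to 3. All ddi-1(icb156) libraries were below all wild-type libraries, and wild-type replicate 2 lay between the ddi-1(icb156) libraries and the rest. The means were 26.5 ± 6.42 CPM in ddi-1(icb156) and 88.9 ± 38 CPM in wild type (n = 3 each, SD), for a log2 fold change of -1.75 (SE 0.37, edgeR adjusted p = 0.0257). Its paralog alg-4 (WBGene00006449, ZK757.3, chromosome III, 9887209 to 9891424, minus strand) had 35.6, 32.7 and 48 CPM in the ddi-1(icb156) libraries, against 147, 62.7 and 152 CPM in the wild-type libraries. The libraries fell in the same order as for alg-3, and again the groups did not overlap. The means were 38.8 ± 8.09 CPM in ddi-1(icb156) and 121 ± 50.3 CPM in wild type (n = 3 each, SD), for a log2 fold change of -1.64 (SE 0.35, edgeR adjusted p = 0.0261). Without wild-type replicate 2 the log2 fold changes were -2.07 for alg-3 and -1.95 for alg-4. Both calls were lost without ddi-1(icb156) replicate 1 or 2, where p was 0.0157 and 0.0163 for alg-3 and 0.0160 and 0.0170 for alg-4 in edgeR's test, and that of alg-4 also without wild-type replicate 3, with an edgeR p of 0.0101. The pair took 5.22% ± 0.561 of the summed CPM of the 10 Argonaute genes in ddi-1(icb156) and 11.1% ± 3.41 in wild type (SD, n = 3 each). The ratio of alg-4 to alg-3 was 1.42 to 1.51 in the ddi-1(icb156) libraries and 1.35 to 1.39 in the wild-type libraries, and since the sequences are alike, reads may have been shared between them.

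Markers of spermatogenesis moved in the same libraries. Of 20 spermatogenesis genes tested 15 were lower and none higher, where 13.4% and 9.96% of all genes tested were. The median log2 fold change of these markers was -1.47. The fit without wild-type replicate 2, with 22.2% of all genes tested lower, had 20 of 21 of these markers lower, with a median of -1.76. Their summed level was 140 to 212 CPM in the ddi-1(icb156) libraries and 246 to 555 CPM in the wild-type libraries, where replicate 2 had the 246 CPM, and no gene of the list was at 0 in the files. The early spermatogenesis regulator spe-44 had a log2 fold change of -0.60 (SE 0.15, edgeR adjusted p = 0.0337), and spe-4, a presenilin of sperm organelles, one of -1.18 (SE 0.27, edgeR adjusted p = 0.0293). The part of these markers in the result for alg-3 and alg-4 was not tested. Among all genes tested, the profiles nearest to that of alg-3 over the 6 libraries were those of F54F12.1, K09C6.7 and melo-3, at Euclidean distances of 0.09, 0.10 and 0.10 between log2 CPM centred on their mean. The nearest to alg-4 were F26A1.4, F37A4.4 and snf-2, at distances of 0.10, 0.10 and 0.12. The paralogs themselves lay 0.15 apart, alg-4 being 12th nearest to alg-3.

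**Figure D2:**
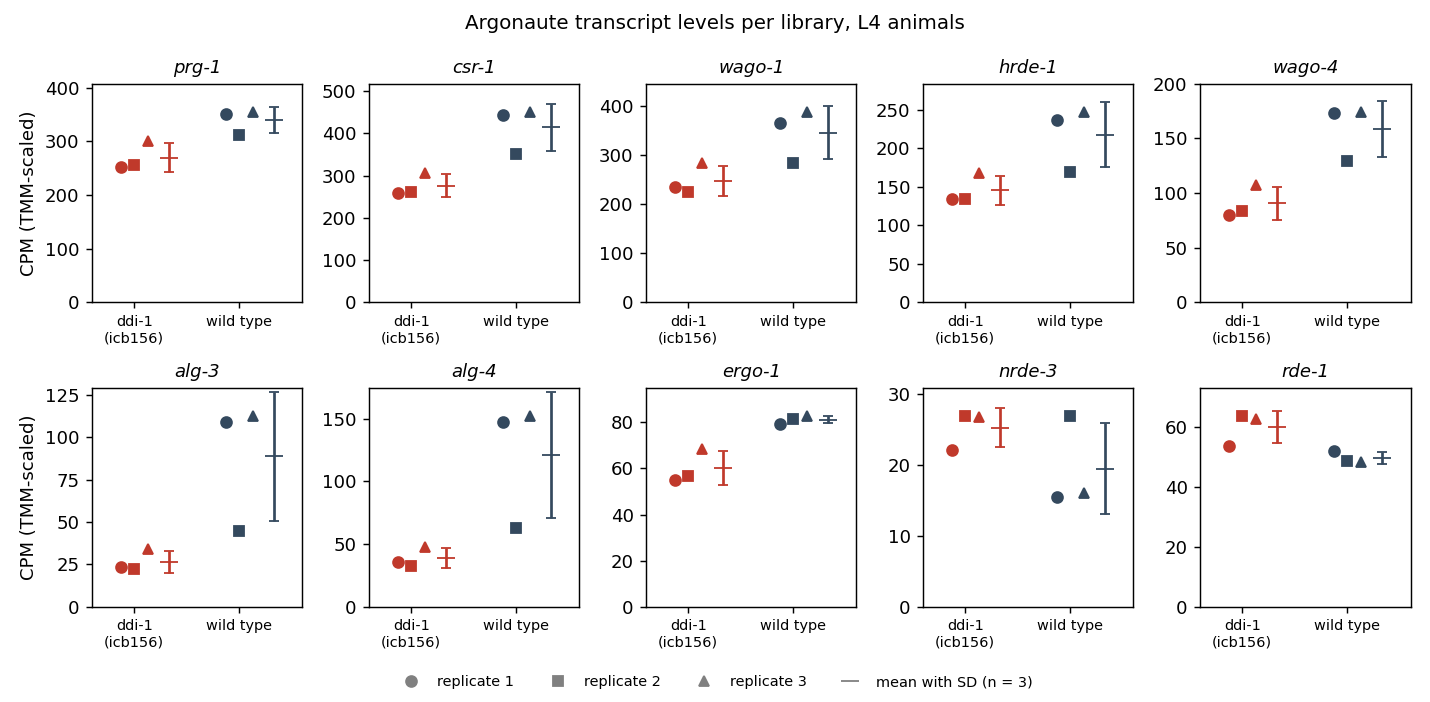
CPM of each Argonaute gene in each library on linear axes from 0, ddi-1(icb156) libraries left of wild-type libraries, with the replicate given by the symbol and the mean and SD of 3 libraries beside the points. Wild-type replicate 2, the square, is the lowest wild-type library for alg-3 (45 CPM) and alg-4 (62.7 CPM) and the highest for nrde-3 (26.9 CPM).

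Among the Argonautes of the germ line at large, csr-1 and wago-4 were lower in ddi-1(icb156) animals. The csr-1 gene (WBGene00017641, F20D12.1, chromosome IV, 7957267 to 7962157, plus strand), whose protein is the only essential Argonaute of the siRNA pathways, had 259, 262 and 307 CPM in ddi-1(icb156) replicates 1 to 3, against 443, 351 and 450 CPM in wild-type replicates 1 to 3. Its groups did not overlap, with means of 276 ± 27.1 CPM in ddi-1(icb156) and 415 ± 55.3 CPM in wild type (SD, n = 3 each). The log2 fold change was -0.59 (SE 0.12, edgeR adjusted p = 0.0235). It was -0.70 without wild-type replicate 2. The call was lost without ddi-1(icb156) replicate 1 or 2, where edgeR's p was 0.0127 and 0.0131. The csr-1 exons overlap frpr-10 on the same strand, but frpr-10 had at most 0.61 CPM. The wago-4 gene (WBGene00010263, F58G1.1, chromosome II, 12919551 to 12923377, plus strand), whose protein carries silencing from parent to offspring in the germline cytoplasm, had 80.4, 83.6 and 108 CPM in the ddi-1(icb156) libraries, against 173, 129 and 174 CPM in the wild-type libraries. Every ddi-1(icb156) library was lower than every wild-type library here too. The means were 90.5 ± 14.9 CPM in ddi-1(icb156) and 159 ± 25.4 CPM in wild type (n = 3 each, SD), for a log2 fold change of -0.81 (SE 0.16, edgeR adjusted p = 0.0214). The log2 fold change of wago-4 was -0.94 without wild-type replicate 2. Of 14 alternative fits wago-4 passed in 13, the exception being that without ddi-1(icb156) replicate 2, with an edgeR p of 0.0111.

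The other germline Argonautes, prg-1, hrde-1 and wago-1, did not pass, and each narrowly missed the limit on p. For prg-1 (WBGene00004178, D2030.6, chromosome I, 7585329 to 7588367, minus strand), the Piwi protein that binds piRNAs, the levels were 252, 256 and 301 CPM in the ddi-1(icb156) libraries, against 352, 312 and 355 CPM in the wild-type libraries. The groups lay close together without overlapping, with a log2 fold change of -0.33 (SE 0.09), an edgeR p of 0.0111 and an adjusted p of 0.0452. The nuclear Argonaute gene hrde-1 (WBGene00007624, C16C10.3, chromosome III, 4172337 to 4176159, minus strand), which maintains silencing over generations, had 135, 135 and 167 CPM in the ddi-1(icb156) libraries, against 237, 169 and 247 CPM in the wild-type libraries. Its log2 fold change was -0.58 (SE 0.17), with an edgeR p of 0.0118 and an adjusted p of 0.0468, and the highest ddi-1(icb156) library came just under wild-type replicate 2. The wago-1 gene (WBGene00011061, R06C7.1, chromosome I, 7235384 to 7238792, plus strand), whose protein silences genes and transposons in the germline cytoplasm, had 235.01, 225.13 and 283.26 CPM in the ddi-1(icb156) libraries, against 365.59, 284.42 and 387.53 CPM in the wild-type libraries. Its log2 fold change was -0.48 (SE 0.14), with an edgeR p of 0.0142 and an adjusted p of 0.0524, and here too the groups nearly met at wild-type replicate 2. Without that library all 3 genes were lower, with log2 fold changes of -0.39 for prg-1, -0.73 for hrde-1 and -0.61 for wago-1 (edgeR adjusted p = 0.00823, 4.97e-04 and 0.00162). Wild-type replicate 2 was the lowest wild-type library for each, so leaving it out had to widen the difference. In that fit 22.2% of all genes tested were lower. With replicate number as a block, hrde-1 (log2 fold change -0.57, adjusted p = 0.0238) and wago-1 (-0.48, adjusted p = 0.0216) passed edgeR's test as well. That block was chosen from correlations between these same libraries, and 14.3% of all genes tested were lower with it. Without ddi-1(icb156) replicate 3, prg-1 and wago-1 were lower, with log2 fold changes of -0.42 and -0.59. Exons of prg-1 overlap D2030.12 on the other strand, which had at most 2.24 CPM.

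Of 20 general germline markers 5 were lower and none higher, where 13.4% and 9.96% of all genes tested were. The median log2 fold change of these markers was -0.37, beside -0.33 to -0.81 for the 5 germline-wide Argonautes. Their summed level was 2374 to 2839 CPM in the ddi-1(icb156) libraries and 2917 to 3947 CPM in the wild-type libraries, with no gene at 0. The Notch receptor gene glp-1, which keeps germline stem cells dividing, had a log2 fold change of -0.34 (SE 0.09, edgeR adjusted p = 0.0354), and the P granule gene pgl-1 had one of -0.50 (SE 0.14, edgeR adjusted p = 0.0467) without passing. Of 16 oogenesis genes 14 were lower, with a median of -1.40 and a summed level of 359 to 450 CPM in the ddi-1(icb156) libraries and 597 to 1296 CPM in the wild-type libraries. In that list the oocyte maturation gene oma-1 had a log2 fold change of -0.83 and passed, and oma-2 had one of -0.73 and did not. Somatic tissue markers, of which 1 of 13 was higher and 1 lower, had a median of 0.10 and summed to 12710 to 15505 CPM in ddi-1(icb156) and 13797 to 14573 CPM in wild type. Without wild-type replicate 2, 17 of 20 germline and 16 of 16 oogenesis genes were lower, with medians of -0.47 and -1.70. In that fit 5 of 13 somatic genes were higher and none lower, with a median of 0.20. Of all genes tested, 22.2% were lower and 19.7% higher there. The myosin genes unc-54 and myo-3 of body wall muscle had log2 fold changes of -0.05 and -0.25, of which the second passed. The part of these markers in the results for the Argonaute genes was not tested.

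**Figure D3:**
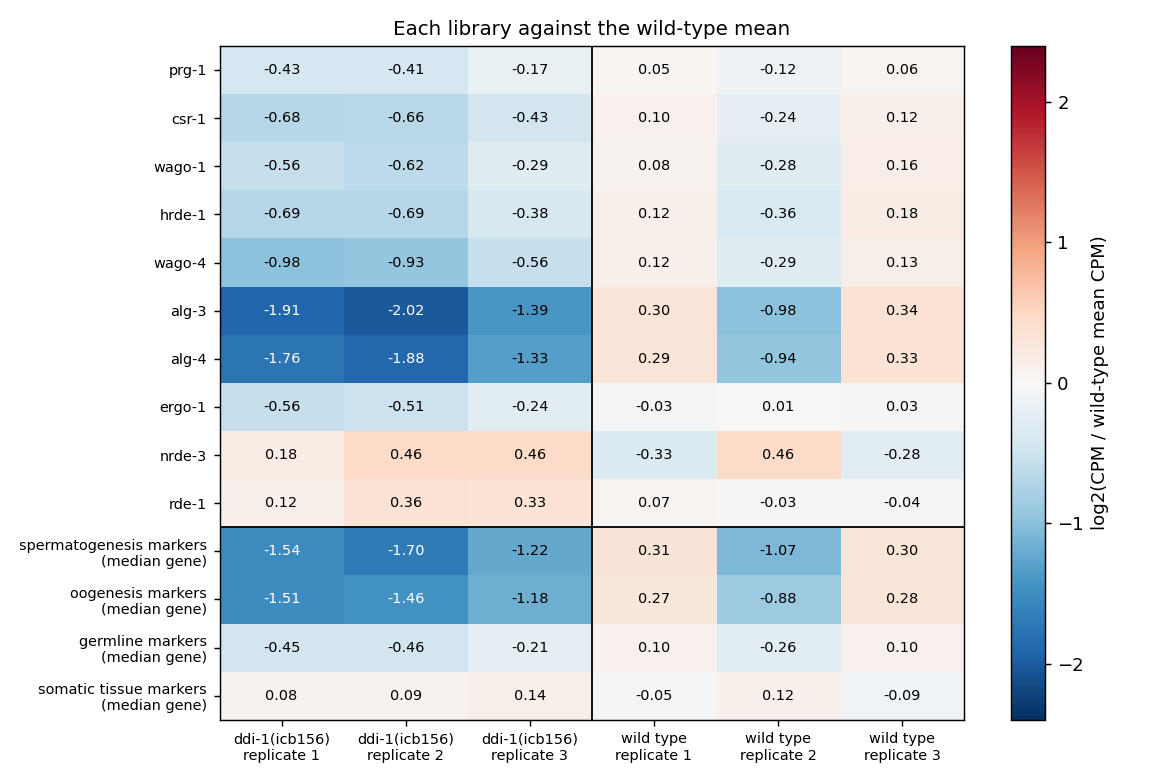
Log2 ratio of the CPM of each library to the wild-type mean CPM, as numbers and colours, for the 10 Argonaute genes and, below the line, for the median gene of each marker list, ddi-1(icb156) libraries left of wild-type libraries. Wild-type replicate 2 is at -0.98 for alg-3, -0.94 for alg-4 and -1.07 for the median spermatogenesis marker, and at 0.01 for ergo-1.

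The levels of wild-type replicate 2 relative to the mean of wild-type replicates 1 and 3 differed among the Argonaute genes. On the log2 scale it was -1.30 for alg-3 and -1.26 for alg-4, from -0.52 to -0.18 for hrde-1, wago-4, wago-1, csr-1 and prg-1, and 0.77 for nrde-3. It was 0.01 for ergo-1 and -0.04 for rde-1. The cuticle collagen gene dpy-7, which peaks in each larval stage before the molt, was also highest in that library, at 314 CPM against 81.5 and 118 CPM in the other wild-type libraries and 147.6 to 182.4 CPM in the ddi-1(icb156) libraries. Of other somatic markers, elt-3 was also highest there, at 28.0 CPM against 15.2 and 16.3 CPM in the other wild-type libraries. Among wild-type libraries the same held for myo-2, at 529 CPM against 389 and 398 CPM. It also held for myo-3, unc-15, act-5, rab-3, unc-119 and snb-1. In contrast, lin-26 was lowest there, at 72.2 CPM against 74.6 and 72.5 CPM. The markers unc-54 and ges-1 were also lowest there among wild-type libraries, and elt-2 lay in between. The labels give no hour of collection beyond the stage, and what set wild-type replicate 2 apart was not tested.

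CSR-1 is made as a long isoform, CSR-1a, known from spermatogenesis and some somatic tissue, and a short one, CSR-1b, made throughout the germ line. Transcripts of the long isoform summed to 184, 189 and 195 CPM in ddi-1(icb156) replicates 1 to 3, against 276, 222 and 276 CPM in wild-type replicates 1 to 3. The transcript of the short isoform had 76.3, 73.7 and 112 CPM in the ddi-1(icb156) libraries, against 168, 129 and 175 CPM in the wild-type libraries. Neither isoform overlapped between the groups. In the fit to all 25554 transcripts tested, of which 2.76% were lower and 2.59% higher, the short one (F20D12.1b.1) had a log2 fold change of -0.85 (SE 0.21, edgeR adjusted p = 0.120), and the transcripts of the long one, F20D12.1a.1 and F20D12.1a.2, had -0.85 and -0.30 (edgeR adjusted p = 0.220 each). None of the 3 passed. The long isoform took 70.6%, 72.0% and 63.6% of the csr-1 counts in the ddi-1(icb156) libraries and 62.2%, 63.2% and 61.2% in the wild-type libraries. The difference of 6.54 percentage points had a two-sided exact permutation p of 0.1, the smallest that 3 against 3 libraries allow. Leaving out a library in turn put that difference between 4.93 and 9.09 points. Reads shared by the isoforms are divided by kallisto, so these shares are estimates.

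**Figure D4:**
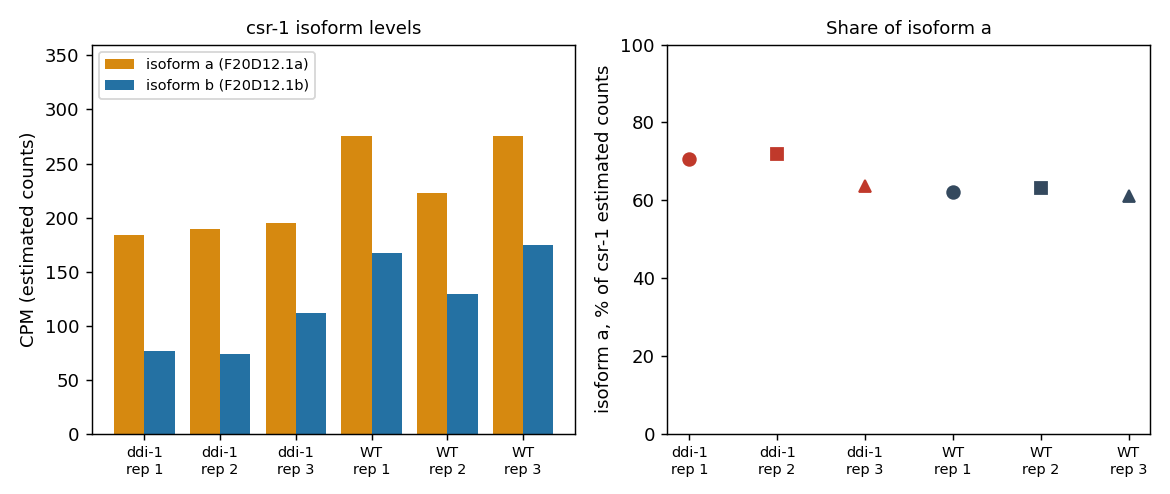
Left, bars of CPM of the long isoform (a) and the short isoform (b) of csr-1 in each library; right, the share of the long isoform in the csr-1 estimated counts in percent, with ddi-1(icb156) libraries left of wild-type (WT) libraries. The share is 63.6% to 72.0% in ddi-1(icb156) and 61.2% to 63.2% in wild type.

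Other Argonaute genes were less informative by transcript. Of 27 transcripts of the 10 genes 25 could be tested, and only wago-4 transcript F58G1.1.2 was lower (log2 fold change -1.02, SE 0.12, edgeR adjusted p = 0.0251), while none was higher. The division of counts between near-identical transcripts varied within a group, as for ergo-1 transcript R09A1.1a.1, which had 0.27, 1.03 and 42.4 CPM in ddi-1(icb156) and 26.9, 5.65 and 0.64 CPM in wild type.

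RNA of ergo-1, whose protein is the primary Argonaute of endogenous siRNAs in oocytes and embryos, was lower in ddi-1(icb156), and its wild-type libraries lay close together. The ergo-1 gene (WBGene00019971, R09A1.1, chromosome V, 1008803 to 1018352, plus strand) had 55, 56.9 and 68.5 CPM in ddi-1(icb156) replicates 1 to 3, against 79.4, 81.4 and 82.6 CPM in wild-type replicates 1 to 3. The means were 60.1 ± 7.30 CPM in ddi-1(icb156) and 81.1 ± 1.63 CPM in wild type (n = 3 each, SD), for a log2 fold change of -0.43 (SE 0.09, edgeR adjusted p = 0.0247), and it was also -0.43 without wild-type replicate 2. The call was lost without ddi-1(icb156) replicate 1 or 2 with edgeR p-values of 0.0105 and 0.0104 and on log2(TPM + 0.5) and log2(TPM + 1), where limma gave log2 fold changes of -0.25 on each. Exons of ergo-1 overlap pei-2 on the other strand, which had 6.31 to 7.86 CPM in ddi-1(icb156) and 10.6 to 24.3 CPM in wild type and was lower itself (log2 fold change -1.44, edgeR adjusted p = 0.028). Without knowledge of the strand, reads of the 2 genes cannot be told apart there.

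The genes of the somatic nuclear Argonaute and of the exogenous pathway had positive folds and did not pass. NRDE-3 carries siRNAs into the nuclei of somatic cells to silence genes there. The nrde-3 gene (WBGene00019862, R04A9.2, chromosome X, 372235 to 376900, plus strand) had 22.1, 26.9 and 26.8 CPM in the ddi-1(icb156) libraries, against 15.5, 26.9 and 16.05 CPM in the wild-type libraries. The groups overlapped through wild-type replicate 2, and the log2 fold change was 0.37 (SE 0.23, edgeR adjusted p = 0.266). Without that library, the highest of wild type for this gene, nrde-3 was higher in ddi-1(icb156), with a log2 fold change of 0.68 and an edgeR adjusted p of 9.88e-04. In that fit 19.7% of all genes tested were higher, and it was the only 1 of 14 alternatives in which nrde-3 passed. RDE-1 receives siRNAs cut from foreign double-stranded RNA and starts RNA interference. The rde-1 gene (WBGene00004323, K08H10.7, chromosome V, 9987916 to 9991642, minus strand) had 53.8, 63.5 and 62.5 CPM in the ddi-1(icb156) libraries, against 52.1, 48.6 and 48.2 CPM in the wild-type libraries. The groups did not overlap but nearly met, and the log2 fold change was 0.27 (SE 0.08), with an edgeR p of 0.0146 and an adjusted p of 0.0532. It was higher with libraries scaled by their size alone (log2 fold change 0.36, edgeR adjusted p = 0.0333) and without ddi-1(icb156) replicate 1 (0.34, edgeR adjusted p = 0.0511), where 12.4% and 6.26% of all genes were higher. It did not pass without wild-type replicate 2 (0.26, edgeR adjusted p = 0.0430, with a p of 0.0205).

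Levels of different genes were compared per length, in TPM (estimated counts over effective length, scaled to the same sum in every library). In ddi-1(icb156) the order was prg-1 (96.0 ± 8.36 TPM), csr-1 (80.9 ± 7.84), wago-1 (76.3 ± 7.65), hrde-1 (38.5 ± 4.24), wago-4 (25.2 ± 3.72), ergo-1 (19.0 ± 0.819), rde-1 (17.6 ± 2.10), alg-4 (11.6 ± 2.34), alg-3 (7.64 ± 1.62) and nrde-3 (6.89 ± 0.929 TPM; SD, n = 3 throughout). In wild type it was csr-1 (121 ± 14.4 TPM), prg-1 (118 ± 6.13), wago-1 (104 ± 14.6), hrde-1 (55.95 ± 10.003), wago-4 (43.0 ± 6.17), alg-4 (34.9 ± 14.6), alg-3 (24.9 ± 10.4), ergo-1 (22.7 ± 0.703), rde-1 (14.1 ± 0.543) and nrde-3 (5.19 ± 1.82 TPM; SD, n = 3 throughout). The germline-wide genes led in both groups, and by their means alg-4 and alg-3 stood below ergo-1 and rde-1 in ddi-1(icb156) and above them in wild type. Wild-type replicate 2 did not have that order, since alg-3 at 12.9 TPM was below rde-1 (14.2 TPM) there, and alg-4 at 18.1 TPM was below ergo-1 (22.5 TPM). Of neighbours in the ddi-1(icb156) order, the libraries of prg-1 and csr-1, of csr-1 and wago-1, of ergo-1 and rde-1 and of alg-3 and nrde-3 overlapped. In the wild-type order all neighbours overlapped except wago-1 and hrde-1, ergo-1 and rde-1, and rde-1 and nrde-3.

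The other Argonaute genes went in both directions. Of 10 that could be tested, vsra-1 and sago-2 were higher, sago-1, alg-5 and wago-10 were lower and the other 5 missed the thresholds. Among all genes tested, 9.96% were higher and 13.4% lower. The median log2 fold change of these 10 other Argonaute genes was -0.02. The gene vsra-1, whose protein associates with several kinds of small RNA, had 83.1, 84.7 and 108 CPM in the ddi-1(icb156) libraries, against 19.7, 27.4 and 23.04 CPM in the wild-type libraries. All ddi-1(icb156) libraries were far above all wild-type libraries, with a log2 fold change of 1.98 (SE 0.16, edgeR adjusted p = 0.00132), and the gene passed in all 14 alternatives. The secondary Argonaute genes sago-1 and sago-2, whose proteins take up secondary siRNAs in RNA interference, differed in direction. For sago-2 the mean was 45.3 ± 2.64 CPM in ddi-1(icb156) and 31.9 ± 3.87 CPM in wild type (n = 3 each, SD), for a log2 fold change of 0.50 (SE 0.10, edgeR adjusted p = 0.0215). For sago-1 it was 48.4 ± 5.88 CPM in ddi-1(icb156) and 70.7 ± 2.62 CPM in wild type (n = 3 each, SD), for a log2 fold change of -0.55 (SE 0.10, edgeR adjusted p = 0.0141), and it too passed in all 14 alternatives. The call of sago-2 was lost without ddi-1(icb156) replicate 2 or 3, with edgeR p-values of 0.0107 and 0.01003.

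The germline microRNA Argonaute gene alg-5 had 21.9 ± 0.417 CPM in ddi-1(icb156) and 30.5 ± 4.29 CPM in wild type (n = 3 each, SD), for a log2 fold change of -0.48 (SE 0.11, edgeR adjusted p = 0.0302). For wago-10 the mean was 29.4 ± 6.72 CPM in ddi-1(icb156) and 63.9 ± 21.4 CPM in wild type (n = 3 each, SD), for a log2 fold change of -1.12 (SE 0.29, edgeR adjusted p = 0.0374). The call of alg-5 was lost without any library other than wild-type replicate 2, and that of wago-10 without any of replicates 1 and 3 of wild type and 1 and 2 of ddi-1(icb156). The call of alg-5 was also lost with library size alone and on log2(TPM + 0.5), and that of wago-10 on both TPM scales. Without wild-type replicate 2 the log2 fold changes were 2.11 for vsra-1, 0.46 for sago-2, -0.52 for sago-1, -0.59 for alg-5 and -1.38 for wago-10. The main microRNA Argonaute genes alg-1 and alg-2 had log2 fold changes of -0.02 and 0.16 (edgeR adjusted p = 0.935 and 0.355), and ppw-2 had one of -0.02 (edgeR adjusted p = 0.855). The direction of alg-1 and of ppw-2 changed with the scaling. The germline RNA interference gene ppw-1 had a log2 fold change of 0.32 (edgeR adjusted p = 0.0916) and wago-5 one of -0.56 (edgeR adjusted p = 0.0551). The gene wago-5 was lower without wild-type replicate 2 (-0.64) and without ddi-1(icb156) replicate 3 (-0.71).

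Most genes that make the small RNAs or act beside the Argonautes did not pass. The same held for all genes tested, of which 9.96% were higher and 13.4% lower. Of the 10 Dicer and ERI genes, which produce primary siRNAs, 1 was higher and 1 lower, with a median log2 fold change of -0.02. The Dicer gene dcr-1 had 87.1 ± 7.32 CPM in ddi-1(icb156) and 108.5 ± 6.26 CPM in wild type (n = 3 each, SD), for a log2 fold change of -0.32 (SE 0.08, edgeR adjusted p = 0.0364). The helicase gene eri-6 had a log2 fold change of 0.42 (SE 0.10, edgeR adjusted p = 0.0314), which did not pass with replicate number as a block (0.42, an edgeR p of 0.0156 and an adjusted p of 0.0560). Of 21 secondary siRNA and mutator genes 1 was higher and 3 were lower, with a median of -0.12. The RNA-dependent RNA polymerase family gene rrf-2 had 38.4, 45.9 and 53.5 CPM in the ddi-1(icb156) libraries, against 13.1, 10.3 and 12.4 CPM in the wild-type libraries. It was well separated between the groups, with a log2 fold change of 1.94 (SE 0.15, edgeR adjusted p = 0.00111). Lower were the germline polymerase gene ego-1 (log2 fold change -0.38, edgeR adjusted p = 0.0283), mut-16, the scaffold of mutator foci (-0.56, edgeR adjusted p = 0.0347), and pid-2, which acts in piRNA silencing (-0.54, edgeR adjusted p = 0.0392).

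None of the 14 piRNA formation genes tested passed edgeR's test in either direction, and their median log2 fold change was -0.14. At an unadjusted p below 0.05, 2 of them were lower and none was higher, where 22.8% and 19.2% of all genes tested were. None of the 6 nuclear RNA interference genes passed either, with a median of -0.16 and 2 lower at an unadjusted p below 0.05. Of 7 genes for the transport of double-stranded RNA, the endosomal protein gene sid-5 was higher and none lower, with a median of -0.16. It had 10.1, 9.19 and 9.11 CPM in the ddi-1(icb156) libraries, against 4.01, 4.38 and 3.79 CPM in the wild-type libraries, a log2 fold change of 1.22 (SE 0.13, edgeR adjusted p = 0.00262). Without wild-type replicate 2, 5 of 14 piRNA formation genes and 1 of 6 nuclear RNA interference genes were lower. So were 1 of 7 transport genes and 7 of 21 secondary siRNA and mutator genes, where 22.2% of all genes tested were lower. The counts of higher genes in these lists were as before, where 19.7% of all genes tested were higher. The calls of rrf-2 and sid-5 held in all 14 alternatives. Those of dcr-1, eri-6, ego-1, mut-16 and pid-2 held in 6 to 9 of them, and each was lost without either of replicates 1 and 3 of wild type and without replicate 1 of ddi-1(icb156). Without replicate 2 of ddi-1(icb156) all of these but ego-1 were lost, and without replicate 3 all but mut-16.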

How the data were processed

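Transcripts of L4 animals of both genotypes were quantified by the authors with kallisto on WormBase WS283 transcripts, and the authors compared groups by Sleuth's Wald test. The sources used here give neither tool versions nor strandedness. Each deposited file holds the estimated counts per transcript of 1 library, neither normalized nor pooled, with the transcript length and effective length, which are other measures in bases. A total of 37058 transcripts were joined to 19999 genes by the WBcel235 annotation of Ensembl release 115, of which 30413 matched by ID, 6633 by sequence name and 12 kept their own names. Gene symbols and positions are from that annotation, and the files themselves hold no coordinates.

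The estimated counts of a gene were added up and rounded. The filterByExpr function of edgeR 4.0.16 (R 4.3.3) kept 15409 genes, with TMM factors from 0.9692 to 1.0716. The robust quasi-likelihood test was two-sided, without covariates, with Benjamini-Hochberg adjustment over all genes tested, and genes passed where p was under 0.01 and adjusted p under 0.1. With 4 residual degrees of freedom, the biological coefficient of variation was 0.202. The fit to transcripts was made in the same way. TPM were computed from estimated counts and effective lengths. Whether replicates came from separate cultures is not stated, so p-values measure the spread between these libraries. Same-numbered libraries deviated together from their group means, with correlations across genes of 0.11, 0.31 and 0.19, so by a limit of 0.1 replicate number was also fitted as a block. The pairing comes from these correlations, not from a label, and is not specific for replicate 1, since ddi-1(icb156) replicate 3 and wild-type replicate 1 had 0.11 too. The other unlike-numbered pairs had -0.29 to 0.092.

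The Argonaute genes and the lists of other genes were chosen with earlier results of these data known. Genes named are the 10 Argonaute genes, the other Argonautes, up to 3 passing genes of smallest p in each direction from each other small RNA list, the first 2 of each marker list and the 3 nearest in profile to alg-3 and to alg-4. The somatic markers other than unc-54 and myo-3 were named after their values were seen. So were the genes frpr-10, D2030.12 and pei-2 and the transcripts F58G1.1.2 and R09A1.1a.1. The genes wago-2, wago-11, prg-2, tofu-3 and fer-14 were not analysed here, and spe-29 was under the filter. Alternatives were edgeR's relative log expression (RLE) scaling, the Wald test of DESeq2 1.42.0, library size alone and other filters. The rest were limma 3.58.1 on log2(TPM + 0.5) and log2(TPM + 1), the block, and each library left out. Each of the 10 Argonaute genes had 631 or more counts in every library.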

Additional observations from a re-analysis of the deposited data

How the results depend on the processing

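Of 140 alternative values for the 10 Argonaute genes, 113 kept their direction and side of the threshold, 12 kept the direction only, 15 came past the threshold and none reversed. Of 140 for the other Argonautes, 111 kept both, 15 lost and 4 gained the call, and 10 reversed. Of 98 for the 7 named pathway genes, 63 kept both and 35 lost the call. Leaving out a library in turn gave 0 to 8 lower and 0 to 1 higher of the 10 Argonaute genes, 1 to 4 lower and 1 to 2 higher of the other Argonautes, and 771 to 3474 lower and 931 to 3085 higher of all genes tested. With 1 library fewer, the residual degrees of freedom fall too. With DESeq2's Wald test 8 of the 10 were lower, beside 18.4% of all genes, and with library size alone 1 was higher, beside 12.4%. On log2(TPM + 0.5) only 1 of the other Argonautes was lower, with 1346 of all genes, and on log2(TPM + 1) 1371 of all genes were lower, against 2071 in edgeR's fit. Of all calls 42.6% were higher in that fit, 53.2% when scaled by library size, and 57.2% and 56.2% with the pseudocounts of 0.5 and 1 TPM, while no scaling moved the median gene by over 0.1. The log2 fold change of alg-1 reversed to 0.066 when scaled by library size alone, to 0.0351 on log2(TPM + 0.5) and to 0.0345 on log2(TPM + 1), and that of ppw-2 to 0.057, 0.0110 and 0.0110. With a library left out it ranged from -0.085 to 0.11 for alg-1 and from -0.105 to 0.0285 for ppw-2. The cause was not tested. The replicate block gave 7 of the 10 lower, beside 14.3% of all genes, and changed no call of a named Argonaute or pathway gene but those of hrde-1, wago-1 and eri-6. The long csr-1 isoform's share differed by 4.93 to 9.09 points without 1 library.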
